A study of Canis lupus familiaris with 8 samples.

Results

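The genes described here encode 12 integrin subunits and 27 proteins that bind integrin tails or gather at focal adhesions, in monolayers of the dog kidney epithelial line MDCK GII. They were chosen by name from a list of 39 genes. Of these, 38 were found among the 37952 genes of the count table and 37 were among the 14571 genes with enough reads to be tested. TGFB1I1, which encodes the paxillin relative Hic-5, had 1 read in 1 of the 8 wells and was not tested, and LPP was not analysed here.

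The comparison was between 2 groups of 4 wells, both of the same unmodified line. All wells had an elastic silicone membrane, 0.25 mm thick and coated with rat tail collagen type 1 at 0.05 mg/mL. Cells were seeded in medium with 50 µM calcium, which was exchanged for regular medium, and were kept overnight before the experiment. In the stretch wells the membrane was drawn by vacuum and held at 18% static, equibiaxial strain for 2 hours, and the control wells were not strained. The labels call the wells technical replicates of a single line spread over several devices, so each p-value below measures the spread between wells and not between independent cultures. Libraries were made from polyadenylated RNA and held 27047358 to 32478887 counts per well.

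Integrins are receptors made of an alpha and a beta subunit that bind extracellular matrix outside the cell and, through talin, kindlin and other adaptors, the actin cytoskeleton inside it. Clusters of bound integrins form focal adhesions, where the kinases FAK and Src and scaffolds such as paxillin and p130Cas turn pulling force into signals. In kidney epithelium, integrins hold the cell layer on its basement membrane. The comparison of stretched with resting wells addresses which of these transcripts differ within hours of strain.

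The wells carried the transcripts of an epithelium. All 10 epithelial markers on a fixed list, among them EPCAM, CDH1, KRT8 and KRT18, exceeded 1 CPM in at least 1 well (CPM, read counts scaled to a common library size with TMM factors). Their sum per well was 6311 to 7082 CPM without strain and 6711 to 6904 with it. CDH16, a cadherin of the kidney tubule, was the weakest at 0.677 to 2.02 CPM. Of the markers of other cells, 7 of 8 for fibroblasts, 5 of 6 for endothelium and 6 of 8 for blood cells stayed below 1 CPM in every well. At 0 in every well were COL1A2, COL3A1, DCN and LUM of fibroblasts, EMCN of endothelium and PTPRC, CD3E, LYZ and ITGAM of blood cells. The summed level of each of these lists was at most 8.11 CPM in any well. The exceptions above 1 CPM were PDGFRA with at most 4.11 CPM, KDR with at most 1.59, CD14 with at most 6.69 and ITGA2B with at most 1.51.

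Levels of different genes were compared after division by exon length, as CPM per kb. Within the integrins of unstretched wells, the beta 1 subunit gene ITGB1, the common partner of most alpha subunits, stood first with 155 ± 7.36 CPM per kb (SD, n = 4), higher than 96.2% of all tested genes. ITGB3, the beta 3 subunit that pairs with alpha V, followed with 136 ± 28.2 CPM per kb, and its control wells overlapped those of ITGB1. The next genes were ITGB4 with 91.4 ± 16.8, ITGA2 with 81.3 ± 14.4 and ITGA3 with 75.4 ± 12.1 CPM per kb, and neighbours among these 3 overlapped. The place of ITGB3 depends on the division by its exon length of 2374 bases. In CPM its control mean was 323, below ITGA2 (609), ITGB1 (588), ITGB4 (546) and ITGA3 (345). ITGB4 is the partner of alpha 6 in hemidesmosomes, the anchors of epithelium on laminin, while ITGA2 and ITGA3 with beta 1 form receptors for collagen and for laminin.

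A middle group of integrins lay at 27 to 37 CPM per kb. It held ITGB5 (36.6 ± 1.49), ITGB8 (29.5 ± 1.42), ITGAV (27.4 ± 1.47) and ITGB6 (27.1 ± 2.84), that is, alpha V and its remaining beta partners on the list, which bind RGD-containing ligands such as vitronectin and latent TGF-beta. The control wells of ITGB8, ITGAV and ITGB6 overlapped from each to the next, and ITGB5 lay above them. ITGA6, the alpha subunit of the hemidesmosome, followed with 11.1 ± 1.84 CPM per kb. Its exons overlap those of LOC102153619 on the opposite strand, which averaged 139 counts per well against 2625 for ITGA6.

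The alpha subunits ITGA5 and ITGA1 were close to absent. ITGA5, which makes the classical fibronectin receptor with beta 1, had 0.487 ± 0.0679 CPM per kb in control wells, and ITGA1, a second collagen receptor subunit, had 0.366 ± 0.0407, with overlapping wells. These were 45 to 83 reads per well for ITGA5 and 99 to 138 for ITGA1. ITGA1 and ITGA2 are neighbours on the minus strand of chromosome 4 (63212383 to 63380850 and 63091317 to 63193515 in the dog assembly UU_Cfam_GSD_1.0), with 18867 bases between them. Per kb, ITGA2 exceeded ITGA1 by 226 ± 56.8 times in control wells and 210 ± 37.8 times in stretch wells. ITGAV exceeded ITGA5 by 56.9 ± 7.76 and 52.0 ± 7.24 times.

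**Figure D1:**
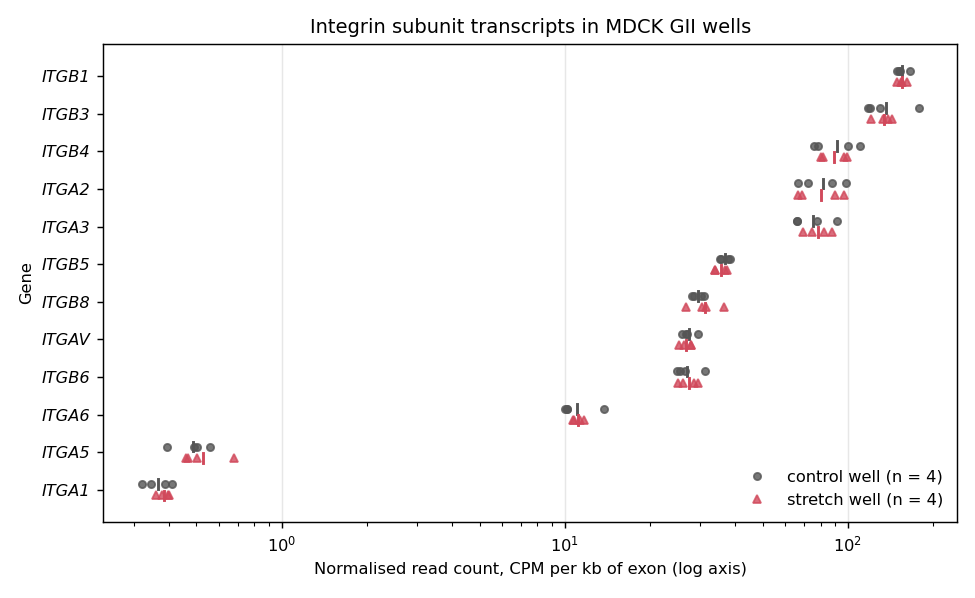
Normalised read counts per kb of exon (log axis) of the 12 integrin subunits, with 1 point per well, circles for control and triangles for stretch, and short bars for the mean of 4 wells. The list runs from ITGB1 at 155 to ITGA1 at 0.366 CPM per kb in control wells, and for each subunit the points of both groups overlap.

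Among the proteins inside the cell, 4 of the pairs of relatives compared per kb had a clear leading member and 3 were closer to even. TLN1, the talin that links integrin tails to actin, had 12.2 to 13.7 CPM per kb in control wells and its relative TLN2 had 0.764 ± 0.0940, a ratio of 17.3 ± 3.05. FERMT2, or kindlin-2, exceeded FERMT1 (kindlin-1, the form typical of skin and gut epithelium) by 23.5 ± 3.04 times. PARVA exceeded PARVB by 18.4 ± 4.48 times, these being the parvins that connect ILK to actin. PTK2, the gene of FAK, exceeded its relative PTK2B (Pyk2) by 6.40 ± 0.728 times. The closer pairs were KANK1 over KANK2 with a ratio of 0.764 ± 0.261, CRKL over CRK with 0.589 ± 0.0306 and TNS1 over TNS3 with 0.897 ± 0.130, all in control wells. The last 2 ratios depend on exon length, which is 5236 bases for CRKL and 974 for CRK. In CPM, control means were 83.3 for CRKL against 26.3 for CRK, and 161 for TNS1 against 88.7 for TNS3. TLN1 overlaps CREB3 on the opposite strand, which averaged 740 counts per well against 3350 for TLN1.

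The complex of ILK, PINCH and parvin, an adaptor between integrin tails and actin, was expressed throughout. ILK had 34.2 ± 1.32, PARVA 27.2 ± 2.84, RSU1 21.5 ± 1.06 and LIMS1 (PINCH1) 16.2 ± 1.51 CPM per kb. The ILK value is uncertain, since the table's counting strand is not given and ILK shares exon sequence with TAF10 and RRP8 on the other strand, which averaged 1391 and 385 counts per well against 2201 for ILK. The highest levels of all 25 cytoplasmic genes tested were those of PDLIM7, a PDZ and LIM domain protein of actin filaments, with 57.3 ± 4.75, and of TNS4, the short tensin that lacks an actin-binding part, with 44.8 ± 25.9 CPM per kb. The wells of PDLIM7 and TNS4 overlapped, those of TNS4 ranging from 25.4 to 80.4. The place of TNS4 by its mean rests on control replicates 3 and 4, with 80.4 and 47.6 CPM per kb. In control replicates 1 and 2 it had 25.8 and 25.4, below ILK with 36.2 and 33.5 in the same wells. The lowest levels were those of TLN2, FERMT1 and PARVB, between 0.764 and 1.54 CPM per kb.

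**Figure D2:**
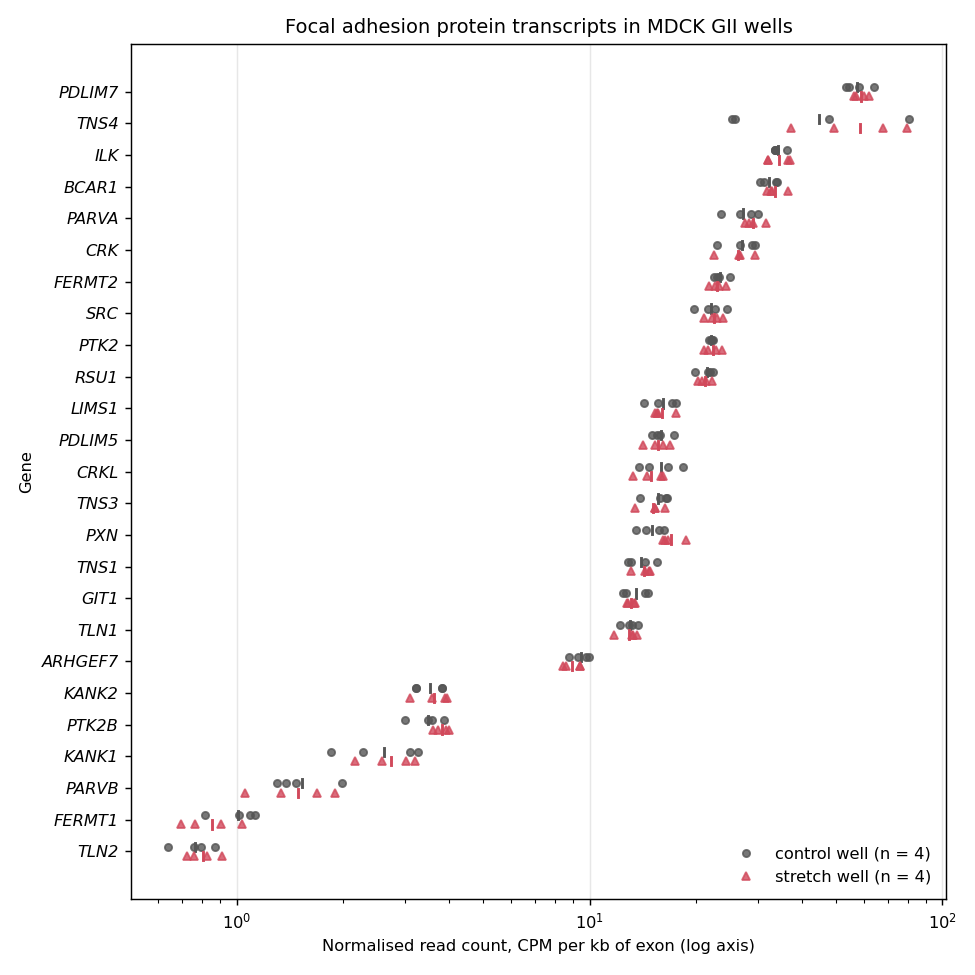
Normalised read counts per kb of exon (log axis) of the 25 tested genes of focal adhesion proteins, with 1 point per well, circles for control and triangles for stretch, and short bars for the mean of 4 wells. PDLIM7 and TNS4 lie at the top, TLN2 at the bottom, and TNS4 has the widest spread, from 25.4 to 80.4 CPM per kb in control wells.

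None of these genes passed the test for stretch. Without a term for the replicate number, 0 of the 37 had an adjusted p under 0.05, as did 0% of all tested genes (edgeR quasi-likelihood test, Benjamini-Hochberg over all genes). At an unadjusted p under 0.05 there was 1 member of the 37, PXN, where the share of all genes was 3.97%. DESeq2 called 0 members and 0.275% of all genes, and limma-voom called 0 members and 0% of all genes. With the replicate number as a block, 0 members passed where 0.700% of all genes did, and 2 members (5.41%) had an unadjusted p under 0.05, against 8.89% of all genes.

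The log2 changes of the 37 genes had a median of 0.0048 (all tested genes, -0.0032) and a median size of 0.042 (all tested genes, 0.059). Of the 37, 20 were above 0 and 17 below. In 0 of the 37 did the stretch wells lie wholly above or below the control wells, which was seen in 2.55% of all genes. All 4 same-numbered pairs were higher after stretch in 3 members, PXN, PARVA and PTK2B (8.11%, against 8.45% of all genes). All 4 pairs were lower in 3 others, FERMT1, CRKL and ARHGEF7 (8.11%, against 7.84%). These shares were near those of the whole table.

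The intervals limit how large a difference could have been missed in these wells. In 23 of the 37 genes (62.2%) the 95% interval of the fold change stayed within 1.2-fold in either direction without the block, as it did in 48.6% of all tested genes. With the block this held for 28 (75.7%), against 58.9% of all tested genes. Within 1.5-fold, without the block, lay 35 of the 37 (94.6%; all tested genes, 80.2%). The exceptions were FERMT1, whose interval ran from 0.657 to 1.08-fold, and TNS4, from 0.620 to 2.75-fold.

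**Figure D3:**
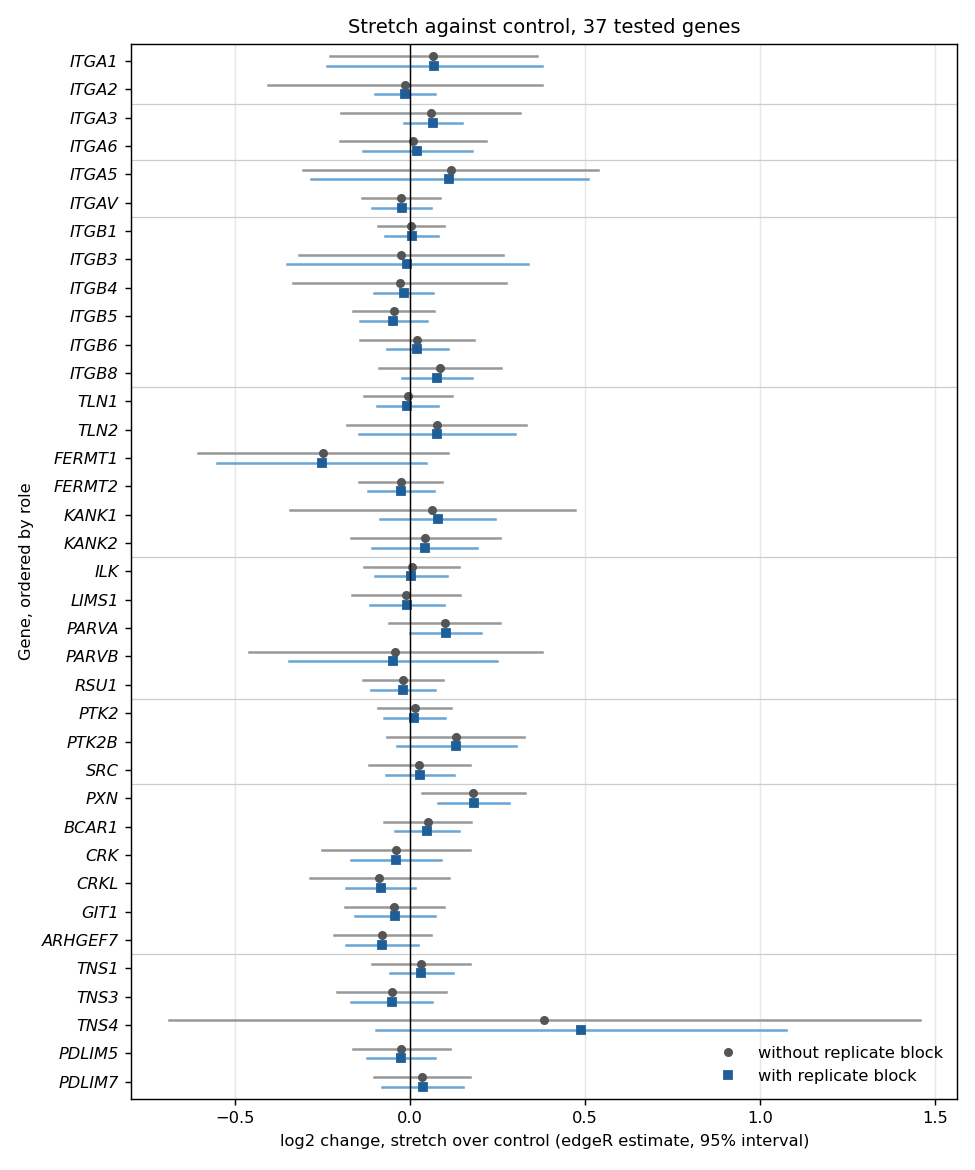
Fitted log2 change of stretch over control for the 37 tested genes in order of role, with 95% intervals, circles without and squares with the replicate block. All intervals but those of PXN without the block and of PXN and PARVA with it include 0, and the interval of TNS4 is the widest.

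ITGB1, on chromosome 2 (3939078 to 3985170), was among the best determined. It had 567, 582, 629 and 575 CPM in control replicates 1 to 4 and 568, 585, 591 and 615 in stretch replicates 1 to 4. The groups overlapped, and the fold change had an interval of 0.939 to 1.07 without the block and 0.952 to 1.06 with it. ITGAV, on chromosome 36 (29188373 to 29276043), had 184, 183, 200 and 177 CPM in control wells and 172, 179, 190 and 189 in stretch wells, again overlapping, with an interval of 0.910 to 1.06.

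The collagen receptor subunit ITGA2 had 499, 542, 735 and 658 CPM in control wells and 499, 515, 672 and 726 in stretch wells. Wells of the same number were alike and differed more between numbers than between groups. Its fold change interval was 0.755 to 1.30 without the block and narrowed to 0.932 to 1.05 with it. ITGB4, on chromosome 9 (5705723 to 5735767), had 469, 455, 661 and 599 CPM in control wells and 479, 487, 593 and 580 in stretch wells. Its interval narrowed in the same way, from 0.793 to 1.21 without the block to 0.931 to 1.05 with it.

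ITGA3, on chromosome 9 (26016729 to 26046536), had 301, 302, 418 and 356 CPM in control wells and 318, 341, 401 and 376 in stretch wells. Its log2 change with the block was 0.07 ± 0.04 (SE; edgeR, adjusted p = 0.722). ITGB3 had 279, 285, 422 and 308 CPM in control wells and 286, 328, 317 and 338 in stretch wells. Control replicate 3 was high and its stretch counterpart was not, and the block did not narrow the log2 interval of ITGB3, which was -0.32 to 0.27 without it and -0.35 to 0.34 with it. Without replicate 3 of both groups its log2 change was 0.13 with the block (edgeR, adjusted p = 0.109), against -0.0080 with all wells.

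PXN was the member nearest to the threshold. It encodes paxillin, a LIM-domain scaffold of focal adhesions that FAK and Src phosphorylate, and lies on chromosome 26 (16504096 to 16552543, minus strand). It had 77.7, 72.9, 84.2 and 87.2 CPM in control wells and 88.1, 86.6, 101 and 89.6 in stretch wells. Each stretch well exceeded the control well of its number, and the groups overlapped only through control replicate 4 and stretch replicate 2. The log2 change was 0.18 ± 0.07 without the block (SE; edgeR, unadjusted p = 0.0204, adjusted p = 0.999) and 0.18 ± 0.05 with it (unadjusted p = 0.00153, adjusted p = 0.112). With the block, 198 of all tested genes had a smaller p. PXN passed in 1 alternative, the block without a filter on low counts (edgeR, adjusted p = 0.0210). Its unadjusted p exceeded 0.05 without control replicate 2 (edgeR, 0.0666) or without stretch replicate 3 (0.0699).

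PARVA, on chromosome 21 (35985531 to 36152922), had 88.4, 78.2, 99.9 and 95.2 CPM in control wells and 91.9, 94.0, 105 and 96.3 in stretch wells. The pairs differed by log2 values of 0.054, 0.27, 0.073 and 0.018, so the replicate 2 pair carried most of the difference. Its log2 change with the block was 0.10 ± 0.05 (SE; edgeR, unadjusted p = 0.0491, adjusted p = 0.559). ILK and LIMS1, the partners of parvin, had log2 changes of 0.0048 and -0.011 without the block, and RSU1, which binds PINCH, had -0.021.

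The kinases did not pass either. PTK2 (FAK) had 127 ± 1.54 CPM in control and 128 ± 6.70 in stretch wells, with a fold change interval of 0.939 to 1.09. SRC had 89.5 ± 7.87 and 91.2 ± 4.71 CPM, with an interval of 0.922 to 1.13. PTK2B had 17.1, 13.3, 15.4 and 15.9 CPM in control wells and 17.7, 17.4, 16.0 and 16.5 in stretch wells, a log2 change of 0.13 ± 0.09 (SE; edgeR, unadjusted p = 0.175). As for PARVA, the replicate 2 pair differed most, by 0.38 on the log2 scale, and the others by 0.048 to 0.053.

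Of the scaffolds and adaptors other than paxillin, BCAR1 (p130Cas, which is stretched and phosphorylated under force) had a log2 change of 0.05. The adaptors CRK and CRKL, which bind phosphorylated paxillin and p130Cas, had -0.040 and -0.088, and GIT1 and ARHGEF7 (beta-PIX), which form a complex that acts on Rac and Arf GTPases, had -0.045 and -0.080. Talin and kindlin genes, which switch integrins on, had log2 changes of -0.0064 for TLN1, 0.076 for TLN2, -0.027 for FERMT2 and -0.25 for FERMT1. FERMT1 was at 4.96, 4.47, 4.81 and 3.58 CPM in control wells and 4.57, 3.07, 3.98 and 3.35 in stretch wells, with 83 to 142 reads per well (edgeR, unadjusted p = 0.156). The talin-binding KANK1 and KANK2, which sit at the rim of adhesions, had 0.064 and 0.044. TNS1, TNS3, PDLIM5 and PDLIM7 lay between -0.053 and 0.034.

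TNS4 had the largest change and the largest error. The gene lies on chromosome 9 (22087513 to 22109496). It had 98.1, 96.6, 306 and 181 CPM in control wells and 142, 188, 302 and 257 in stretch wells. The pairs differed by log2 values of 0.53, 0.96, -0.018 and 0.51, and the groups overlapped. The log2 change was 0.38 ± 0.45 without the block (SE; edgeR, adjusted p = 0.999) and 0.49 ± 0.19 with it (adjusted p = 0.658), and it passed in 1 alternative, the block without a filter on low counts (adjusted p = 2.7e-27). In that fit the prior degrees of freedom for TNS4 were estimated as infinite, so its variance was taken from the common trend and none of it from its own wells. TNS4 was described for its spread after its values had been seen.

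Ratios between related genes are free of library scaling, and 14 such ratios per kb were compared between groups. Exact permutation tests, two-sided, of 4 against 4 wells gave p from 0.143 (PTK2 over PTK2B) to 0.857, all 0.857 after Benjamini-Hochberg adjustment over the 14, where the smallest possible p is 0.0286. PTK2 over PTK2B was 6.40 ± 0.728 in control and 5.86 ± 0.0626 in stretch wells. ITGB4 over ITGB1 was 0.589 ± 0.0897 and 0.577 ± 0.0522. TNS4 over TNS1 was 3.15 ± 1.71 and 4.06 ± 1.13. FERMT2 over FERMT1 was 23.5 ± 3.04 and 27.8 ± 5.10.

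These tests ignore the pairing of the wells, and a comparison within same-numbered pairs was added after the data had been seen. FERMT2 over FERMT1 was 20.4, 23.0, 22.9 and 27.7 in control replicates 1 to 4 and 21.0, 32.6, 26.9 and 30.6 in the stretch wells of the same numbers. It was higher in all 4 pairs, the groups overlapped, and FERMT1, the denominator, was the member with few reads. CRKL over CRK was lower in all 4 pairs, with means of 0.589 and 0.571, and the other 12 ratios were mixed. For both FERMT2 over FERMT1 and CRKL over CRK the two-sided exact paired permutation test gave p = 0.125, the smallest that 4 pairs allow, and 0.875 after Benjamini-Hochberg adjustment over the 14.

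The larger differences among the wells followed the replicate number. The number accounted for a median of 70.3% of each member's variance in log2 CPM over the 8 wells, and the group for 3.77%. Over all tested genes these medians were 57.6% and 6.54%. With 1 well per number and group, part of any scatter falls to the number. There are 4 numbers and 2 groups, so scatter alone would on average give the number the larger share. In ITGA2 all but 4.92% of the variance went with the number or the group, of which 0.116% with the group, and the share of the number was 93.8% for KANK1, 93.5% for ITGB4, 92.9% for CRK and 90.0% for KANK2. For PXN it was 40.1%, with 48.6% for the group, the highest share of the group among the members.

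The division of the wells into replicates 1 and 2 and replicates 3 and 4, known from earlier results of these data and given no meaning by the labels, held a median of 41.8% of a member's variance, beside 25.2% over all tested genes. In 9 members (24.3%), all 4 wells of replicates 3 and 4 lay above all 4 wells of replicates 1 and 2, which held for 10.4% of all genes. They were ITGA2, ITGA3, ITGB4, KANK2, PARVA, SRC, CRK, CRKL and ARHGEF7. In control wells ITGA2 averaged 520 CPM in replicates 1 and 2 and 697 in replicates 3 and 4, and in stretch wells 507 and 699. ITGB4 averaged 462 and 630 CPM in control wells, and 483 and 586 in stretch wells. In 2 members (5.41%), KANK1 and PTK2, replicates 3 and 4 lay wholly below, against 9.93% of all genes. KANK1 averaged 19.0 and 12.4 CPM in control wells and 18.6 and 14.2 in stretch wells. What the numbers stand for was not tested, and in bulk RNA fewer cells of one kind and less RNA per cell cannot be told apart.

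The spread did not take in all members. The coefficient of variation over control wells was 57.8% for TNS4, 25.4% for KANK1, 20.7% for ITGB3 and 17.8% for ITGA2, and it was 4.76% for ITGB1, 3.87% for ILK and 1.21% for PTK2. The median over the members was 9.34%, beside 9.01% for all tested genes.

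**Figure D4:**
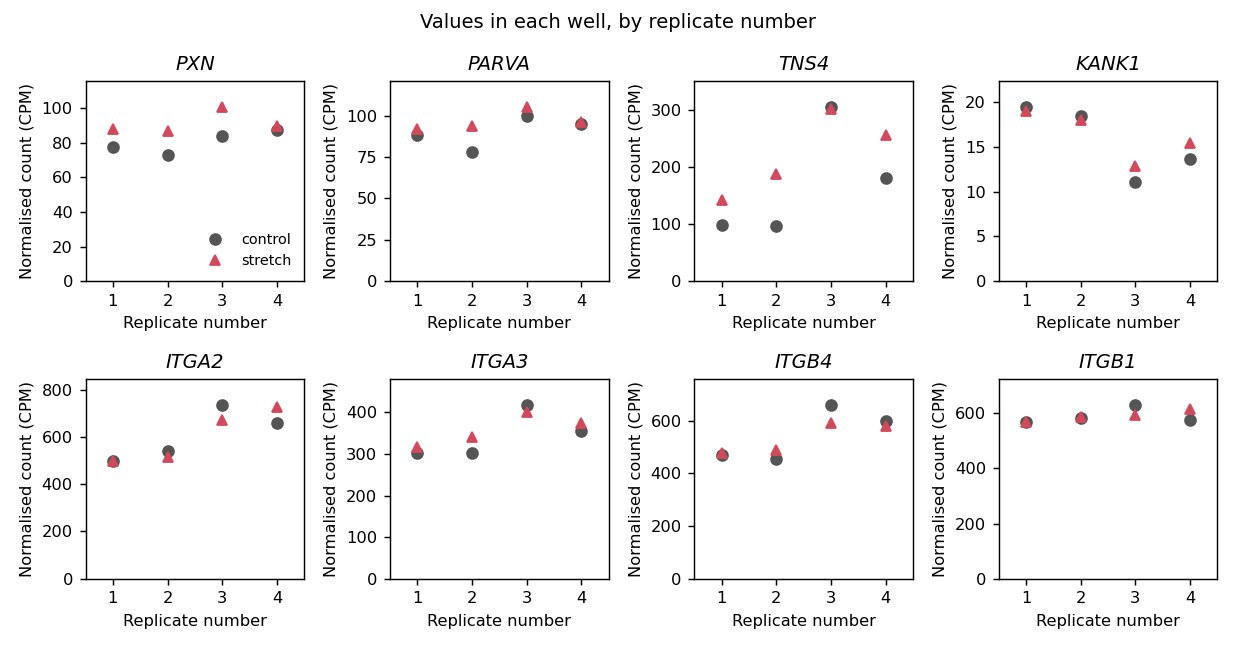
Normalised read counts (CPM) of 8 genes in each well against the replicate number, which is a name and not an order, with circles for control and triangles for stretch. ITGA2, ITGA3 and ITGB4 are higher and KANK1 is lower in replicates 3 and 4 of both groups, ITGB1 varies little, and PXN is higher in the stretch well of each number.

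The wider adhesion machinery was read from 99 other genes, of which 80 were tested. None of these 80 passed without the block or with it (edgeR, 0 in each fit), and 2 and 7 had an unadjusted p under 0.05, where 3.97% and 8.89% of all genes did. Their median log2 change was -5.1e-04. Of 20 genes that link integrins to actin or belong to the zyxin family of LIM proteins, 14 were above 0 and 6 below. Among them 5 (25%) had an unadjusted p under 0.05 with the block, all higher, beside 8.89% of all genes, and none passed over all genes. Without the block 0 of the 20 had an unadjusted p under 0.05, beside 3.97% of all genes. The genes described here are ZYX, FHL2, AJUBA and EVL.

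ZYX encodes zyxin, which moves to actin filaments under tension, and lies on chromosome 16 (6032095 to 6041208). It had 99.6, 92.9, 129 and 118 CPM in control wells and 111, 124, 138 and 127 in stretch wells, overlapping but higher in all 4 pairs. Its log2 change was 0.19 ± 0.05 with the block (SE; edgeR, unadjusted p = 0.00188, adjusted p = 0.126). Without the block it was 0.19 ± 0.10 (SE; edgeR, unadjusted p = 0.0993). The log2 changes of FHL2, AJUBA and EVL with the block were 0.12, 0.087 and 0.17, with adjusted p from 0.398 to 0.537 in edgeR's test. FHL2 is an adaptor at actin-bound adhesions, AJUBA is a LIM protein of adhesions and cell junctions, and EVL promotes actin assembly. EVL shares exon sequence with DEGS2 on the opposite strand and is uncertain.

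Of the 14 integrin subunits outside the main list, 5 had enough reads to be tested, with 3 log2 changes above 0 and 2 below. ITGB7 had the highest log2 change of the 80 genes, 0.93 ± 0.47 without the block (SE; edgeR, unadjusted p = 0.0640). Its means were low, 0.275 CPM in control and 0.523 in stretch wells. ITGA2B, the platelet alpha IIb subunit, had 1.51, 1.07, 1.46 and 0.933 CPM in control wells and 0.584, 0.813, 0.720 and 0.900 in stretch wells, from 17 to 43 reads. All stretch wells were below all control wells (edgeR with the block, adjusted p = 0.469). ITGAE was the other gene of the 80 whose wells did not overlap, again lower after stretch, and such genes were 2.50% of the 80 and 2.55% of all genes. ITGAE shares exon sequence with HASPIN on the opposite strand and is uncertain. Of 22 tested kinases, phosphatases and GTPase regulators 6 were above 0 and 16 below, and NCK1, an adaptor between receptors and actin, had the lowest log2 change with the block, -0.14 (edgeR, adjusted p = 0.426). The 3 hemidesmosome genes PLEC, DST and COL17A1 and the 11 tested ligand genes held none with an unadjusted p under 0.05 in either fit.

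**Figure D5:**
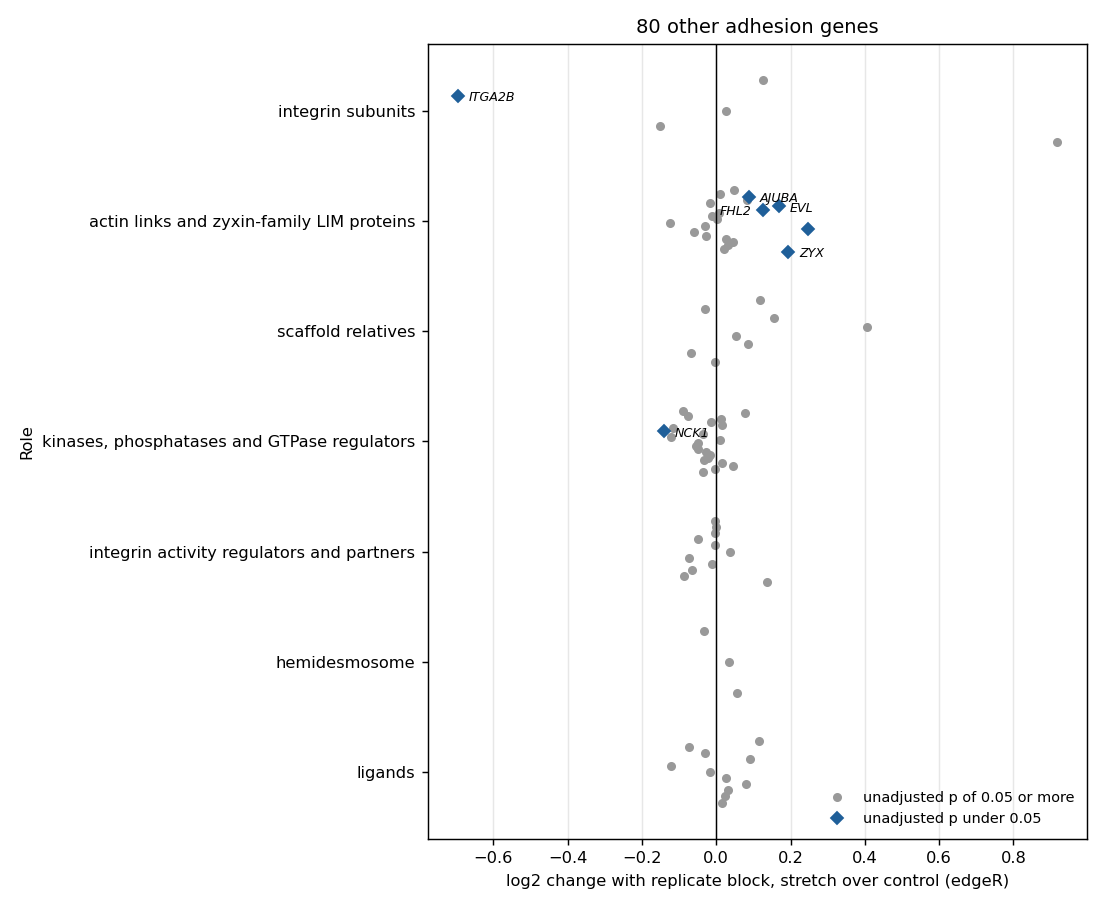
Log2 change of stretch over control with the replicate block for 80 other adhesion genes by role, with diamonds for an unadjusted p under 0.05 in edgeR's test and names for the genes given in the text. The 5 diamonds among the 20 actin-linking and zyxin-family genes lie to the right of 0, and none of the 80 passed after adjustment over all genes. Without the block, 0 of the 20 had an unadjusted p under 0.05.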

How the data were processed

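RNA of 8 wells was sequenced from stranded polyA libraries. The authors deposited unnormalised exon read counts for each gene. Per the submitters' processing notes they used FastQC 0.11.8, Trim Galore 0.6.5, STAR 2.7.3a and featureCounts of Subread. Strand and multi-read settings are not given in the sources used here. The table names no genome build, but all 38 members found there had the same start and end in RefSeq's UU_Cfam_GSD_1.0 gene table, and 37291 of its 37952 symbols matched. All 8 count columns were assigned by library name.

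Counts were tested in R 4.3.3 with edgeR 4.0.16 (TMM factors, filterByExpr with a minimum count of 10, robust quasi-likelihood fit, a stretch term), with p two-sided and adjusted by Benjamini-Hochberg over 14571 genes at 0.05. Intervals are 95% and come from the same fit. The scripts were tested on simulated data. The same test was also fitted with the replicate number as a block. Same-numbered deviations from the group means correlated at 0.166 to 0.428 over the 4 numbers, which was taken as pairing, although 3 of the 4 control wells correlated best with another number. Other alternatives were DESeq2 1.42.0, limma-voom (limma 3.58.1), other scalings and filters, a block of 2 levels, and leaving out wells or pairs. Ratios between related genes were compared by exact permutation of wells and, added after the data had been seen, of signs within pairs. Wells of a group differed beyond sampling noise (chi-square per degree of freedom 5.56 to 26.8). A count of 0 allows up to 3 counts, or 0.0931 to 0.111 CPM per well, covering counting error only.

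The members, the gene lists, the tests and the alternatives were chosen with earlier results of these data known. Values in every well were given for members with non-overlapping groups or an unadjusted p under 0.05 in either fit, and for the 3 alpha and 3 beta subunits with the highest control level per kb. Further genes were described after their values had been seen, and 1 of the other adhesion genes is counted but not reported here by name. Plots used Python 3.11.15 and matplotlib 3.10.9.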

Additional observations from a re-analysis of the deposited data

Results flagged for a closer look

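In 3 of 74 groups of 4 wells (37 genes in 2 groups), 1 well was set apart by Dixon's test (the gap to its nearest neighbour over the whole range), which by chance picks out about 1 group in 20. For ITGA6, control replicate 3 had 110 CPM, where the other control wells had at most 81.3. For ILK, control replicate 1 had 78.5 CPM against 72.8 in each of the other control wells. For LIMS1, stretch replicate 1 had 90.5 CPM against 78.9 to 80.7.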

How the results depend on the processing

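Over 26 alternatives, the count of members past the threshold stayed at 0 in 25. With the replicate block and no filter on low counts it was 2 (TNS4 and PXN) and the count of other adhesion genes was also 2 (ZYX and LAMA5). That fit tested 21962 genes and called 448, against 102 of 14571 with the filter. Its prior degrees of freedom for TNS4 were infinite, so the variance of TNS4 came from the trend alone. For the others the cause was not tested. With the block, leaving out the replicate 3 pair gave 2 other adhesion genes (LAMA3 and ZYX), and over all settings that leave out a well or a pair this count ranged from 0 to 2. The replicate block changed no other call on the members. The median log2 change of the members, 0.0048, was 0.042 in replicates 1 and 2 alone and -5.8e-04 in replicates 3 and 4 alone, and the cause was not tested. Of 962 values of single members under the alternatives, 952 kept their side of the threshold and their sign or moved by less than 1 SE, 7 moved further, 2 newly passed (above) and 1 reversed: ITGB8 was -0.023 in replicates 1 and 2 alone, against 0.085 in all wells. The sign changed in at least 1 alternative for 26 of the 37 members, so no direction is drawn for them. PXN was higher in all 26, with log2 changes from 0.13 to 0.23. Depth limits ITGA1, ITGA5, FERMT1 and PARVB, which had at most 205 reads in a well.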
